A study of Mus musculus with 8 samples.

Results

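The redox genes described here are 10 genes of the NRF2 and glutathione systems (Gsta3, Gsta4, Mgst1, Txn1, Txnrd1, Nqo1, Gclc, Gclm, Hmox1 and Srxn1), taken by symbol from a table of 15995 genes, in which all 10 had a row. Their RNA levels were compared in epidermis of newborn C57BL/6J mice, in 4 Zfp750 knockout samples (ZFP750-/-) and 4 wild-type samples. The ZFP750 protein is a zinc finger regulator of differentiating keratinocytes. Every sample was whole epidermis, peeled from the dermis after trypsin, and the labels give no other treatment. In such bulk RNA, fewer cells of a type and less RNA per cell cannot be told apart. Which part of Zfp750 was removed, and in which cells, is not stated in the labels. Nothing in the labels says that each sample is a separate pup, so p-values measure only the spread between these samples, which may be technical.

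NRF2 (gene Nfe2l2) is a transcription factor that KEAP1 keeps at a low level by marking it for degradation. Oxidants and electrophiles disable KEAP1, and NRF2 then pairs with small MAF proteins on antioxidant response elements. Its best known targets make and recycle glutathione, keep thioredoxin reduced, reduce quinones and break down heme. Glutathione transferases couple reactive products, such as those of lipid peroxidation, to glutathione, and in the epidermis these systems meet oxygen and sunlight.

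Promoter windows of 300 bases, 250 before and 50 after the start, were at hand for 7 of the 10 genes (RefSeq, GRCm38.p6), 10 windows in all. Gsta4, Gclc and Hmox1 had no window. The loose core of the antioxidant response element, TGACNNNGC or TGAGNNNGC on either strand, occurred in windows of 5 of these 7 genes, and 30.8% of the 27025 genes with windows hold it. The full NRF2-MAF form, TGACTCAGC or TGAGTCAGC on either strand, occurred in that of Srxn1 alone, and 0.929% of all genes hold it. The NRF2-MAF form TGAGTCAGC contains the AP-1 site TGAGTCA, which 5.95% of genes hold, so these searches overlap. Windows of 3 genes that differed between the genotypes, and of Srxn1 for its full site, are printed 5′ to 3′ on the strand of the gene, with matches to the loose core in capitals. They are Gsta3 at chr1:21240335-21240634 (plus strand), Mgst1 at chr6:138140277-138140576 (plus strand, the first of 2 windows), Txn1 at chr4:57956362-57956661 (minus strand) and Srxn1 at chr2:152105274-152105573 (plus strand).
Gsta3: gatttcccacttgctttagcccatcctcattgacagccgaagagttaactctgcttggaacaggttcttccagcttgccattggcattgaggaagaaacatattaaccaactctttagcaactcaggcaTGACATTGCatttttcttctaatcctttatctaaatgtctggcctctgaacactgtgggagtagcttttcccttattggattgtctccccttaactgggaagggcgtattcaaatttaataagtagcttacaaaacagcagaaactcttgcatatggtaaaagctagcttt
Mgst1: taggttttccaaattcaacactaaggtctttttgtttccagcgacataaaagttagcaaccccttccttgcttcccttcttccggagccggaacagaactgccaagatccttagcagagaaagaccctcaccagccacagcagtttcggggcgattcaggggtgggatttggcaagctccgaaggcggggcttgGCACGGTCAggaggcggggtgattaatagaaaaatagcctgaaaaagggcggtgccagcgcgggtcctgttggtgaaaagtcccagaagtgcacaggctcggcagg
Txn1: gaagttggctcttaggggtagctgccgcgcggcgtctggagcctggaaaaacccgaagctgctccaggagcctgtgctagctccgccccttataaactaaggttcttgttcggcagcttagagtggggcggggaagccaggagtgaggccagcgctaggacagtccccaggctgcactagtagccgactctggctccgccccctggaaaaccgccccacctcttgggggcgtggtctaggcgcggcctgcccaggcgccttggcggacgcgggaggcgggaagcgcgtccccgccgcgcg
Srxn1: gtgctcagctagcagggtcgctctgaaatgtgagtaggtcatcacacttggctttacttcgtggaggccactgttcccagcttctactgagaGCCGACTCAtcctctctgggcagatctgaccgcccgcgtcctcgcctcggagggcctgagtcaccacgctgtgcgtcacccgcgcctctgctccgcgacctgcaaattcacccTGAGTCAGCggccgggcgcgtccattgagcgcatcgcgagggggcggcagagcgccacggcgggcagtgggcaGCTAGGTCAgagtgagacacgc
The match in the Gsta3 window begins 121 bases before the start. The one in the Mgst1 window begins 56 bases before it and reads on the opposite strand. The second Mgst1 window, not printed, held no match. No match was found in the Txn1 window. Srxn1 has 3 matches, of which the one that begins 45 bases before the start is the NRF2-MAF form. The windows of Gclm and of 1 of the 3 Txnrd1 starts also hold the loose core, and that of Nqo1 does not. Sequence outside the windows was not searched, so a window without a match does not show that a gene lacks the element. A match describes letters and shows no binding.

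Values are FPKM, fragments scaled to transcript length and library size, so levels may be compared between genes. Their sum ranged from 483416 to 577300 per library, and 10637 to 11599 genes reached 1 FPKM. Zfp750 had 2.68, 2.31, 2.29 and 1.53 FPKM in knockout libraries 1 to 4 and 119, 111, 81.6 and 93.7 FPKM in wild-type libraries 1 to 4, as labelled. Of 14 keratinocyte markers 11 were at 1 FPKM or more in every library. Of the 11 tested 3, Krt14, Ivl and Dsg3, were called higher, beside 6.72% of all tested genes, and 0 lower. Flg had no row. Krt1 and Krt10 were at 0 in every wild type and in knockouts 3 and 4, and were left out. Of 11 tested markers of Langerhans and other myeloid cells 9 were called lower, beside 8.94% of all tested genes. Ptprc, Lyz2, Csf1r and Cd14 were below 1 FPKM in every knockout and passed the filter through the wild types. That count thus supports nothing by itself. The 13 listed markers summed to 9.96 to 17.6 FPKM in knockouts and 62.5 to 102 FPKM in wild types. Of 8 basal keratinocyte markers 5 were called higher, beside 6.72% of all tested genes. All 8 together summed to 2349 to 6207 FPKM in knockouts and 1128 to 3502 FPKM in wild types. Of 9 tested hair follicle and sebaceous gland markers 1, Lrig1, was called higher and 1, Krt79, lower. The listed markers of these summed to 368 to 948 FPKM in knockouts and 291 to 600 FPKM in wild types. Melanocyte sums, of which no marker was called, were 19.3 to 99.8 FPKM in knockouts and 15.6 to 90.6 FPKM in wild types, lowest in knockout 4 and wild types 1 and 2. Summed markers of neutrophils and of endothelial cells, of which none passed the filter, were 0.502 to 1.47 FPKM in knockouts and 0.333 to 0.808 FPKM in wild types, and 0.149 to 0.453 FPKM in knockouts and 0.214 to 0.732 FPKM in wild types. T cell sums were 0.911 to 2.73 FPKM in knockouts and 4.62 to 7.99 FPKM in wild types, without overlap. Of 2 tested T cell markers 1, Cd3g, was called lower. Cd3g was also below 1 FPKM in every knockout and passed the filter through the wild types. Of markers of fibroblasts, of erythroid cells and of muscle and fat, 5, 3 and 2 were tested, and none was called. Fibroblast sums were 48.6 to 225 FPKM in knockouts and 54.8 to 129 FPKM in wild types. Erythroid sums were 7.49 to 145 FPKM in knockouts and 10.6 to 33.3 FPKM in wild types. Both sums were highest in knockout 2. Xist, which coats the inactive X, had 126, 84.6, 150.4 and 1.84 FPKM in knockout libraries 1 to 4 and 0.0223, 0.0087, 118 and 0.00825 FPKM in wild-type libraries 1 to 4. It was thus high in knockouts 1 to 3 but only in wild type 3, so Xist and genotype cannot be fully told apart. With log2 Xist as a covariate 1141 genes were called, against 1785 without it. Sample titles carry the codes 11, 14 and 44, whose meaning is not given, and each code holds both genotypes. Code 11 is on knockout 1 and wild type 4, and code 14 on knockout 2 and wild type 3. Code 44 is on knockouts 3 and 4 and wild types 1 and 2.

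Of the 10 genes 9 passed the filter on low values, at least 1 FPKM in 4 of the 8 libraries, and Nqo1 did not. Among the 9, the 2 called higher in knockouts were Gsta3 and Mgst1, beside 6.72% of all 11395 tested genes called higher. The 2 called lower were Gsta4 and Txn1, beside 8.94% of all tested genes. In either direction 4 of 9 were called, beside 15.7% of all tested genes, and 5 missed the limma threshold, 0.05 after Benjamini-Hochberg adjustment over every tested gene. Knockout and wild-type values did not overlap for 5 genes, the 4 called ones and Gclc, and 21.3% of all tested genes had groups that did not overlap. The median log2 change of the 9 genes was -0.21, and that of all tested genes was 0.0072. Gsta3 passed the filter through the knockouts, since 1 wild type reached 1 FPKM, so these counts support nothing by themselves. Log2 changes are of FPKM + 1, knockout minus wild type, given with the standard error (SE), and they understate the change of genes with low values.

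**Figure D1:**
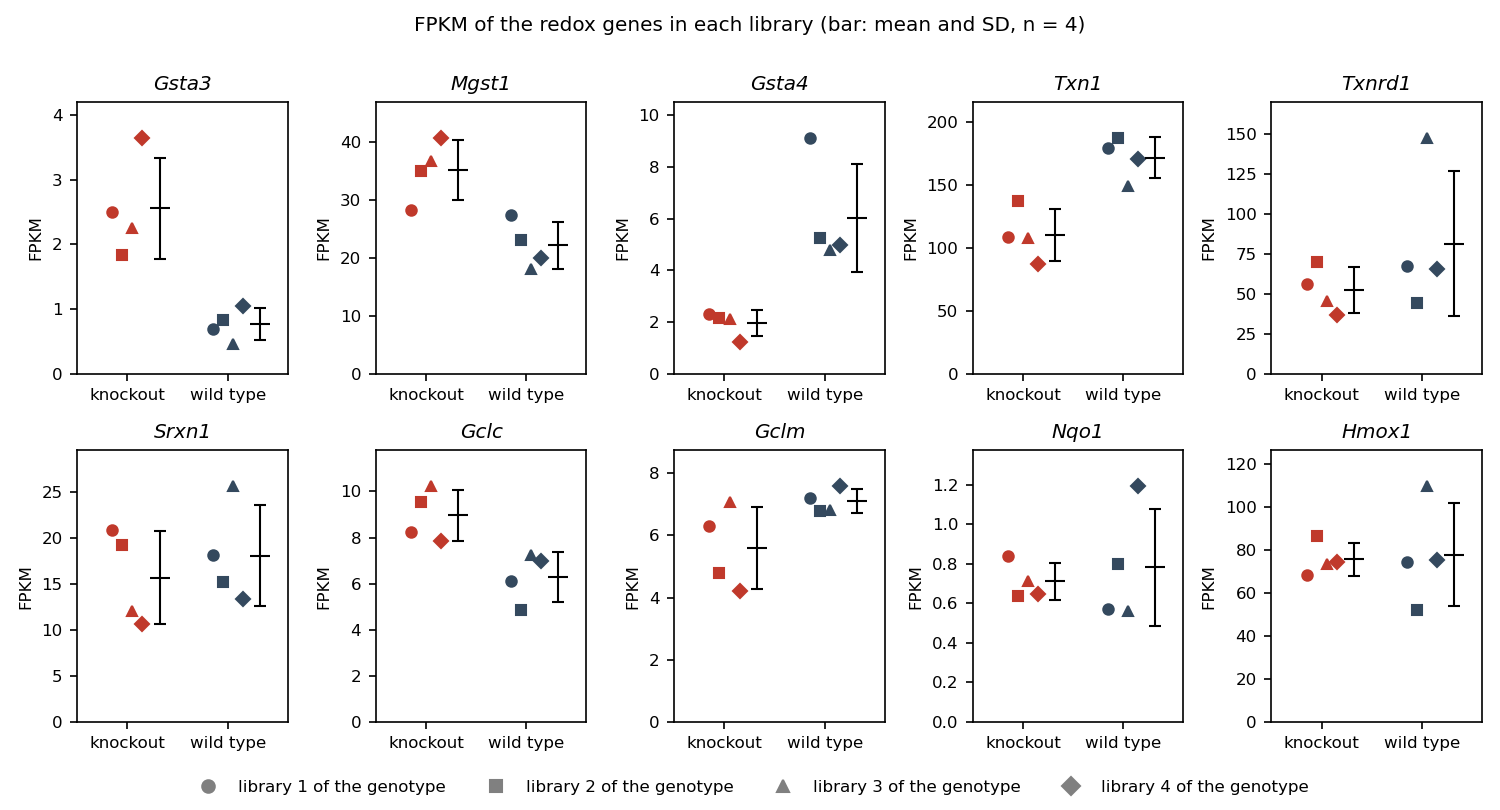
FPKM (vertical axes, linear) of the 10 redox genes in each of 4 knockout and 4 wild-type libraries, 1 symbol per library, with the mean and SD of each genotype. Gsta3, Mgst1 and Gclc were higher in every knockout than in any wild type, Gsta4 and Txn1 were lower, and for Txnrd1, Srxn1, Gclm, Nqo1 and Hmox1 the genotypes overlapped.

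The 3 glutathione transferases among the genes moved in opposite directions. Gsta3 encodes a soluble alpha class enzyme, known in mice for conjugating aflatoxin epoxide. It had 2.5, 1.84, 2.25 and 3.65 FPKM in knockout libraries 1 to 4 and 0.694, 0.839, 0.468 and 1.06 FPKM in wild-type libraries 1 to 4. Every knockout was above every wild type, and knockout 4 was the highest. The knockout mean of 2.56 ± 0.778 FPKM was 3.35 times the wild-type mean of 0.764 ± 0.247 FPKM (SD, n = 4 each). Gsta3 rose by 1.0 ± 0.19 on the log2 scale (SE; limma adjusted p = 0.00715). These levels are low, and the log2 size was 1.63 with a pseudocount of 0.1 and 0.39 with 5. With title codes 11 and 14 alone the limma adjusted p was 0.0545. Gsta3 lies on chromosome 1 from 21240589 to 21265661 (plus strand) of GRCm38, and an antisense transcript, Gm28836, overlaps 15303 bases of it. Alpha class genes are closely related, and whether reads were counted by strand is not given, so the value is uncertain by what these share.

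Mgst1 encodes a glutathione transferase and peroxidase of the endoplasmic reticulum and outer mitochondrial membranes. It had 28.2, 35.0, 36.6 and 40.8 FPKM in knockout libraries 1 to 4 and 27.4, 23.1, 18.2 and 20.0 FPKM in wild-type libraries 1 to 4. The groups were separate by a narrow margin, between knockout 1 and wild type 1. Means were 35.2 ± 5.22 FPKM in knockouts and 22.2 ± 4.04 FPKM in wild types (SD, n = 4 each), and Mgst1 rose by 0.65 ± 0.16 (log2, SE; limma adjusted p = 0.023). The call was lost without knockout 2 (adjusted p = 0.0578), knockout 3 (0.0646), wild type 2 (0.0506), wild type 3 (0.0537) or wild type 4 (0.0557). It was also lost with equal medians (0.068) and with title code 44 alone (0.0654). Mgst1 lies on chromosome 6 from 138140316 to 138156755 (plus strand).

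Gsta4, whose enzyme is known for conjugating 4-hydroxynonenal, a reactive product of lipid peroxidation, went the other way. It had 2.32, 2.17, 2.12 and 1.22 FPKM in knockout libraries 1 to 4 and 9.13, 5.25, 4.77 and 4.97 FPKM in wild-type libraries 1 to 4. All knockouts were below all wild types, knockout 4 was the lowest, and wild type 1 stood well above the other wild types. The mean fell to 1.96 ± 0.499 FPKM in knockouts, against 6.03 ± 2.08 FPKM in wild types (SD, n = 4 each), which is 0.325 times that level. The log2 change was -1.23 ± 0.22 (SE; limma adjusted p = 0.00509), and it was called under all 21 alternatives run, at -0.65 with a pseudocount of 5. Gsta4 lies on chromosome 9 from 78182774 to 78209349 (plus strand). The ratio of Gsta3 to Gsta4 FPKM in the same library was 1.08, 0.846, 1.06 and 3.0 in knockouts 1 to 4, against 0.0761, 0.16, 0.0982 and 0.212 in wild types 1 to 4. Gsta4 thus had the higher FPKM of the pair in every wild type, and Gsta3 in knockouts 1, 3 and 4. In knockouts 1 and 3 the pair was close (2.5 and 2.32 FPKM, 2.25 and 2.12 FPKM), at low levels of related genes. The ratio sets a gene called higher over one called lower, so its split between genotypes follows from those calls. It is given without a test and adds no support.

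Thioredoxin and its partners form the next group. Txn1 encodes cytosolic thioredoxin, which reduces protein disulfides, and it had the highest mean of the 10 genes in both genotypes. It had 108, 137, 108 and 87.1 FPKM in knockout libraries 1 to 4 and 179, 187, 149 and 170.5 FPKM in wild-type libraries 1 to 4. All knockouts were below all wild types, with knockout 2 closest to them. Means were 110.1 ± 20.6 FPKM in knockouts and 172 ± 16.6 FPKM in wild types (SD, n = 4 each), and Txn1 fell by 0.65 ± 0.15 (log2, SE; limma adjusted p = 0.0161). With title codes 11 and 14 alone the change was -0.38 (adjusted p = 0.241), and with code 44 alone -0.91 (0.020). The call was also lost without wild type 1 (0.0523) or wild type 2 (0.0527) and when log2 Xist was a covariate (0.0594). Txn1 lies on chromosome 4 from 57943373 to 57956411 (minus strand).

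Txnrd1, the selenium-containing reductase that recharges thioredoxin, did not pass. It had 56.0, 70.1, 45.7 and 36.7 FPKM in knockout libraries 1 to 4 and 67.5, 44.5, 148 and 65.7 FPKM in wild-type libraries 1 to 4. Wild type 3 held more than any other library, and the remaining libraries overlapped. Summed markers of muscle and fat were also highest in wild type 3 (99.3 FPKM). They were at most 16.7 FPKM in the other wild types and 23.6 to 56.4 FPKM in knockouts. Most of each knockout sum was Fabp4 (35.7, 48.6, 33.0 and 20.9 FPKM in knockouts 1 to 4, and 33.5 FPKM in wild type 3). Acta1, Ckm, Tnnt3 and Mylpf had 22.9, 4.41, 8.76 and 15.0 FPKM in wild type 3. In knockouts they had at most 2.51, 0.486, 0.616 and 3.34 FPKM. Summed myeloid markers were highest in wild type 3 too (102 FPKM), and the part of these cells was not tested. Wild type 3 also had the lowest FPKM sum of all libraries (483416). The log2 change was -0.53 ± 0.33 (SE; limma adjusted p = 0.348), and -0.20 without wild type 3. With log2 Xist as a covariate it was -1.13 (limma adjusted p = 0.0206), a fit in which wild type 3 is the only wild type with high Xist. The ratio of Txnrd1 to Txn1 FPKM was 0.517, 0.511, 0.424 and 0.421 in knockouts 1 to 4, against 0.377, 0.238, 0.991 and 0.386 in wild types 1 to 4. The knockouts lay inside the range of the wild types. Txnrd1, on chromosome 10 from 82833951 to 82897712 (plus strand), shares 1305 bases with Eid3 on the same strand.

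Srxn1 encodes sulfiredoxin, which restores overoxidized peroxiredoxins. It had 20.8, 19.2, 12.0 and 10.7 FPKM in knockout libraries 1 to 4 and 18.2, 15.2, 25.7 and 13.3 FPKM in wild-type libraries 1 to 4. The ranges overlapped, and knockouts 1 and 2 were the higher knockouts. The log2 change was -0.21 ± 0.25 (SE; limma adjusted p = 0.652), and its sign turned with title codes 11 and 14 alone (0.10) and with array weights (0.034). Srxn1, whose window above holds the full NRF2-MAF site, lies on chromosome 2 from 152105516 to 152111376 (plus strand).

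Glutathione synthesis starts with glutamate-cysteine ligase, of which Gclc is the catalytic and Gclm the modifier subunit. Gclc had 8.22, 9.54, 10.2 and 7.85 FPKM in knockout libraries 1 to 4 and 6.11, 4.84, 7.23 and 6.99 FPKM in wild-type libraries 1 to 4. Each knockout exceeded each wild type, yet the log2 change of 0.46 ± 0.15 (SE) did not pass (limma adjusted p = 0.0766). It passed with quantile normalization (adjusted p = 0.0434), equal medians (0.0486) and array weights (0.0118). Gclm had 6.31, 4.8, 7.07 and 4.21 FPKM in knockout libraries 1 to 4 and 7.2, 6.79, 6.82 and 7.6 FPKM in wild-type libraries 1 to 4. Its wild types lay close together, with knockout 3 among them and the other knockouts below. The log2 change of -0.32 ± 0.16 (SE) did not pass (limma adjusted p = 0.239). The ratio of Gclc to Gclm FPKM was 1.3, 1.99, 1.45 and 1.86 in knockouts 1 to 4, against 0.849, 0.712, 1.06 and 0.92 in wild types 1 to 4. All knockouts had a higher ratio of catalytic to modifier subunit RNA than any wild type, a ratio chosen after values were seen and given without a test. Gclc lies on chromosome 9 from 77754535 to 77794485 (plus strand) and Gclm on chromosome 3 from 122245557 to 122270732 (plus strand), where Gm17494 on the opposite strand overlaps 14775 bases.

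Nqo1 and Hmox1 are targets often measured as a readout of NRF2. Nqo1, which reduces quinones, had 0.839, 0.639, 0.715 and 0.649 FPKM in knockout libraries 1 to 4 and 0.569, 0.801, 0.562 and 1.2 FPKM in wild-type libraries 1 to 4. The ranges overlapped, and wild type 4 was the single library above 1 FPKM. The mean log2 difference was -0.05 (two-sided exact permutation test over 70 assignments, p = 0.83, n = 4 each), where 0.0286 is the smallest p the design allows. With depth unknown, no limit can be set on a difference at these levels. Hmox1, the inducible enzyme that breaks down heme, had 68.1, 86.3, 73.6 and 74.2 FPKM in knockout libraries 1 to 4 and 74.4, 52.0, 109.7 and 75.0 FPKM in wild-type libraries 1 to 4. The knockouts lay inside the range of the wild types, of which wild type 3 was the highest and wild type 2 the lowest. Means were 75.5 ± 7.7 FPKM in knockouts and 77.7 ± 23.8 FPKM in wild types (SD, n = 4 each), with a log2 difference of 0.0025 ± 0.20 (SE; limma adjusted p = 0.995). Over all alternatives it ranged from -0.24 to 0.24. Nqo1 lies on chromosome 8 from 107388225 to 107403206 (minus strand) and Hmox1 on chromosome 8 from 75093621 to 75100589 (plus strand).

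**Figure D2:**
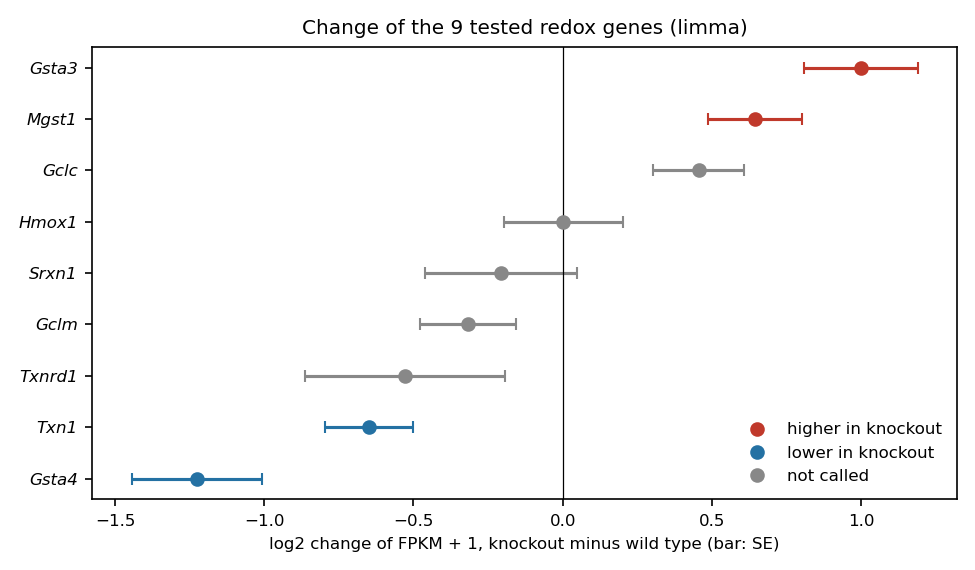
Log2 change of FPKM + 1, knockout minus wild type (horizontal axis), for the 9 tested redox genes, with points for the limma estimate and bars of 1 SE. Gsta3 (1.0) and Mgst1 (0.65) were called higher, Txn1 (-0.65) and Gsta4 (-1.23) lower, and the other 5 did not pass.

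In wild types the order of mean FPKM was Txn1, Txnrd1, Hmox1, Mgst1, Srxn1, Gclm, Gclc, Gsta4, Nqo1 and Gsta3. Neighbours in that order overlapped in their wild-type values, except at the steps from Txn1 to Txnrd1, Hmox1 to Mgst1, Srxn1 to Gclm and Gsta4 to Nqo1. In knockouts Gsta3 ranked 8 and Gsta4 ranked 9, with Hmox1 above Txnrd1 and Gclc above Gclm. Knockout 4 had the lowest knockout value for 6 genes (Gsta4, Txn1, Txnrd1, Gclc, Gclm and Srxn1) and the highest for Gsta3 and Mgst1. It also had the lowest summed basal, melanocyte and fibroblast markers among knockouts (2349, 19.3 and 48.6 FPKM), and the part of these cells was not tested. Of all libraries knockout 4 had the fewest genes at 1 FPKM (10637) and the most missing values (1275). Among knockouts its FPKM sum (510965) and its Xist (1.84 FPKM, at least 84.6 FPKM in the others) were the lowest. Without knockout 4, 2326 genes were called, against 1785 with all libraries. Wild type 3 had the highest wild-type value for 4 genes (Txnrd1, Gclc, Hmox1 and Srxn1) and the lowest for 5. Knockout 2 had the highest knockout value for Txn1, Txnrd1 and Hmox1. Its summed fibroblast and erythroid markers (225 and 145 FPKM) were the highest of all libraries, and the part of these cells was not tested.

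**Figure D3:**
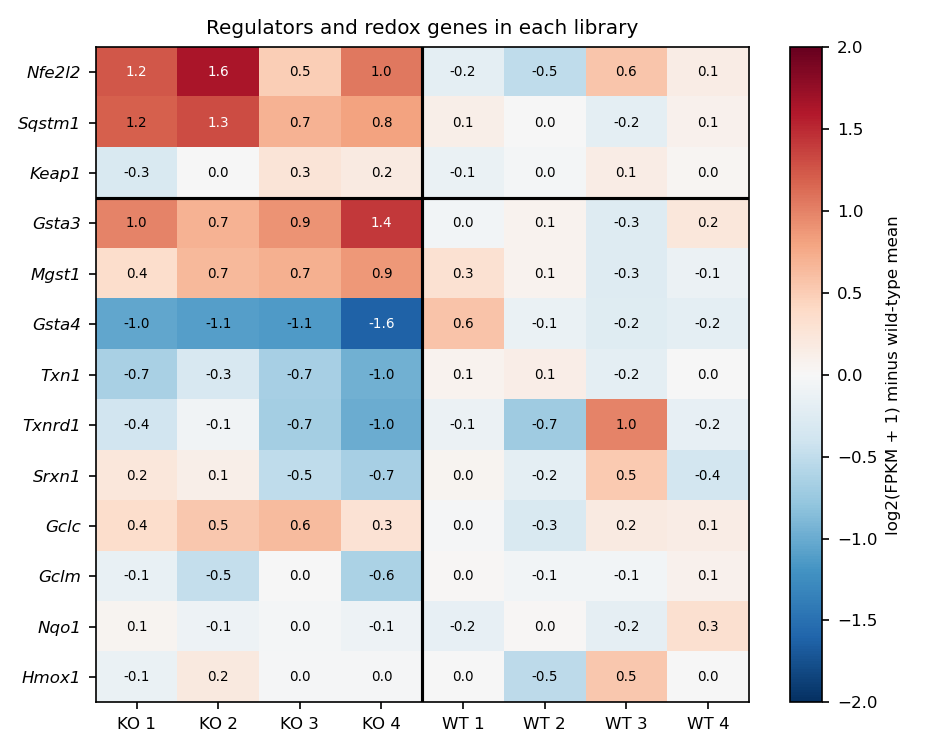
Log2(FPKM + 1) minus the wild-type mean of the same gene, for Nfe2l2, Sqstm1 and Keap1 and the 10 redox genes (rows) in 4 knockout (KO) and 4 wild-type (WT) libraries (columns). Sqstm1 was above every wild type in all 4 knockouts, while Srxn1, Nqo1 and Hmox1 showed no shared direction there and Txnrd1 was highest in wild type 3.

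Regulators of NRF2 were set beside the members. Of 12 tested regulators there were 2 higher, 0 lower and 10 not called (median log2 change 0.33). That is 16.7% called, near the 15.7% of all tested genes (6.72% higher and 8.94% lower). Sqstm1, the autophagy receptor p62 that binds KEAP1, had 99.2, 107, 69.9 and 75.2 FPKM in knockout libraries 1 to 4 and 46.4, 42.6, 37.0 and 45.3 FPKM in wild-type libraries 1 to 4. All knockouts were above all wild types, and it rose by 1.0 ± 0.16 (log2, SE; limma adjusted p = 0.00245). Nfe2l2 had 23.5, 31.1, 13.5 and 20.4 FPKM in knockout libraries 1 to 4 and 8.02, 6.29, 14.3 and 10.4 FPKM in wild-type libraries 1 to 4. The groups overlapped through knockout 3 and wild type 3, and Nfe2l2 rose by 1.10 ± 0.28 (log2, SE; limma adjusted p = 0.0268). Leaving out knockout 1 (adjusted p = 0.0677) or 2 (0.0715), or wild type 1 (0.0777) or 2 (0.0755), ended that call, as did log2 Xist as a covariate (0.151). Keap1, named after its values were seen, had 12.5 ± 2.23 FPKM in knockouts and 12.1 ± 1.08 FPKM in wild types (SD, n = 4 each; log2 0.03, limma adjusted p = 0.913), and its sign turned with quantile normalization and equal medians. Mafk, a small MAF partner, did not pass (0.78 ± 0.24, limma adjusted p = 0.0576), nor did Gsk3b (0.30 ± 0.11, 0.114), a kinase that marks NRF2 for degradation. Mafk passed with title code as a block (adjusted p = 0.0336), with array weights (0.00983), in codes 11 and 14 alone (0.00649) and without knockout 3 (0.0252) or 4 (0.0371).

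Of 13 tested genes of glutathione synthesis, recycling and cystine import there were 1 higher, 3 lower and 9 not called (median log2 change -0.18). Calls covered 30.8% of them, beside 15.7% of all tested genes. Glrx, glutaredoxin, which removes glutathione from proteins, had 74.4, 98.5, 114 and 115 FPKM in knockout libraries 1 to 4 and 340.3, 312, 324 and 260.5 FPKM in wild-type libraries 1 to 4. Every knockout was far below the lowest wild type, and Glrx fell by 1.62 ± 0.16 (log2, SE; limma adjusted p = 1.68e-04). Chac1 and Ggct, enzymes of glutathione breakdown, changed by -1.82 ± 0.38 and -0.76 ± 0.19 (limma adjusted p = 0.0106 and 0.024). Slc3a2, the heavy chain that the cystine carrier shares with other amino acid transporters, rose by 0.73 ± 0.20 (limma adjusted p = 0.0347). The Chac1 call was lost with title codes 11 and 14 alone (0.0574). That of Ggct was lost without knockouts 2 or 3 or wild types 1 or 2 (0.0546 to 0.0744), and that of Slc3a2 without knockouts 1, 2 or 3 or wild types 1, 2 or 3 (0.0612 to 0.0993). Slc7a11, the cystine carrier, and Gsr, glutathione reductase, both named after their values were seen, did not pass (-0.71, limma adjusted p = 0.222, and 0.57, 0.182). Without wild type 1 the Slc7a11 value was -0.38. Gsr passed without knockout 4 (0.85, adjusted p = 0.00565), with array weights (0.00612) and in title codes 11 and 14 alone (0.0231).

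Of 7 tested genes that supply NADPH there were 0 higher, 1 lower and 6 not called (median log2 change -0.02). With 14.3% called, this list was near the 15.7% of all tested genes. The called one was Me1, cytosolic malic enzyme, with 28.9 ± 3.45 FPKM in knockouts and 50.7 ± 5.98 FPKM in wild types (SD, n = 4 each; log2 -0.79 ± 0.13, limma adjusted p = 0.00316). Pgd (-0.32), G6pdx (0.24) and Taldo1 (0.16), of the pentose phosphate pathway, did not pass, and Pgd did with array weights (limma adjusted p = 0.0199).

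Of 16 other tested glutathione transferases there were 1 higher, 4 lower and 11 not called (median log2 change -0.06). The share called was 31.25%, beside 15.7% of all tested genes. Gstm5, a mu class enzyme, had 9.69, 13.9, 12.9 and 11.4 FPKM in knockout libraries 1 to 4 and 57.3, 49.2, 43.3 and 44.7 FPKM in wild-type libraries 1 to 4. No value of one genotype came near the other, and it fell by 1.94 ± 0.14 (log2, SE; limma adjusted p = 3.29e-05). Mgst2, a relative of Mgst1 that also makes leukotriene C4, fell to 23.7 ± 7.1 FPKM in knockouts, against 62.2 ± 21.5 FPKM in wild types (SD, n = 4 each; log2 -1.34 ± 0.28, limma adjusted p = 0.0118, and 0.0659 with log2 Xist as a covariate). Mgst1 was called higher and Mgst2 lower, and the difference between these changes was not tested. Gstm6 (-0.66), the prostaglandin D synthase Hpgds (-0.54) and Gstt3 (0.73) passed, with limma adjusted p of 0.0172, 0.0305 and 0.0463. The Gstm6 call was lost without knockout 2 or wild types 1 or 2 (0.0549 to 0.0567). The Hpgds call was lost without knockouts 2 or 3 or wild types 1, 3 or 4 (0.0553 to 0.084), and the Gstt3 call without knockouts 1, 3 or 4 or wild types 1, 2 or 3 (0.071 to 0.127). Myeloid cells also make Hpgds, the myeloid markers were lower in knockouts (sums above), and their part was not tested. Mu class genes share sequence, which makes the value of any single one uncertain. Gsto1, an omega class enzyme named after its values were seen, had 318 ± 66.9 FPKM in knockouts and 292 ± 62.3 FPKM in wild types (SD, n = 4 each; limma adjusted p = 0.736).

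Of 16 tested thioredoxin, peroxiredoxin and related genes there were 1 higher, 1 lower and 14 not called (median log2 change -0.03). At 12.5% called, this list lay below the 15.7% of all tested genes. Prdx6, a peroxiredoxin that uses glutathione and reduces oxidized phospholipids, had 84.2, 104, 137 and 144 FPKM in knockout libraries 1 to 4 and 54.5, 65.1, 39.5 and 53.1 FPKM in wild-type libraries 1 to 4. All knockouts were above all wild types, knockouts 3 and 4 the most, and it rose by 1.12 ± 0.20 (log2, SE; limma adjusted p = 0.00529). Sesn1, a sestrin, fell by 1.09 ± 0.30 (limma adjusted p = 0.0394), a call lost without knockouts 1 or 2 or wild types 1 or 2 (0.0943 to 0.111). Txnip, which binds and inhibits thioredoxin, and Sesn2 did not pass (-1.27 ± 0.41, limma adjusted p = 0.0652, and 0.57 ± 0.19, 0.0756). Both passed with title code as a block (adjusted p = 0.00657 for Txnip and 0.0386 for Sesn2) and with array weights (0.00728 and 0.0228), and Txnip also in code 44 alone (0.0309) and without knockout 4 (0.0251). Prdx1, an abundant peroxiredoxin named after its values were seen, had 198 ± 13.6 FPKM in knockouts and 179 ± 17.2 FPKM in wild types (SD, n = 4 each; limma adjusted p = 0.43).

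Of 7 tested glutathione peroxidases, catalase and superoxide dismutases there were 1 higher, 1 lower and 5 not called (median log2 change 0.30). Here 28.6% were called, beside 15.7% of all tested genes. Cat, the catalase of peroxisomes, had 20.5, 22.4, 21.5 and 33.4 FPKM in knockout libraries 1 to 4 and 129, 121, 95.1 and 102 FPKM in wild-type libraries 1 to 4. Even the highest knockout, knockout 4, lay far below the lowest wild type, and Cat fell by 2.16 ± 0.17 (log2, SE; limma adjusted p = 5.26e-05). Gpx1, the main cytosolic glutathione peroxidase, had 283, 364, 356 and 294 FPKM in knockout libraries 1 to 4 and 209, 231, 159 and 189 FPKM in wild-type libraries 1 to 4. It was higher in every knockout and rose by 0.72 ± 0.15 (log2, SE; limma adjusted p = 0.00969, and 0.0735 where only title code 44 was kept). Gpx4, which reduces lipid hydroperoxides in membranes, had a log2 change of 0.72 ± 0.24 and did not pass (limma adjusted p = 0.0729), nor did Sod3 (0.42). Gpx4 passed with title code as a block (adjusted p = 0.0311), with array weights (0.00913) and without knockout 4 (0.0313) or wild type 4 (0.0272), and Sod3 with array weights (0.0285).

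Of 9 tested genes of heme and iron handling there were 1 higher, 5 lower and 3 not called (median log2 change -0.36). Calls made up 66.7% of this list, beside 15.7% of all tested genes. Slc40a1, the iron exporter ferroportin, had 5.39, 6.08, 8.2 and 5.25 FPKM in knockout libraries 1 to 4 and 39.5, 33.2, 39.5 and 29.4 FPKM in wild-type libraries 1 to 4. The genotypes were far apart, and it fell by 2.34 ± 0.16 (log2, SE; limma adjusted p = 2.32e-05). Ferroportin is abundant in macrophages, the myeloid markers were lower in the same knockouts (summed 9.96 to 17.6 FPKM in knockouts and 62.5 to 102 FPKM in wild types), and their part was not tested. Fth1, the ferritin heavy chain that stores iron, had 501, 367, 409 and 351 FPKM in knockout libraries 1 to 4 and 147, 156, 223 and 264 FPKM in wild-type libraries 1 to 4. Every knockout was above every wild type, and Fth1 rose by 1.07 ± 0.20 (log2, SE; limma adjusted p = 0.00723, and 0.0633 where only title codes 11 and 14 were kept). Its many processed copies in the genome can share its reads. Blvrb (-1.12 ± 0.14), a biliverdin and flavin reductase, Fech (-0.73 ± 0.13), the last enzyme of heme synthesis, and the heme transporter Slc48a1 (-0.70 ± 0.14) fell, with limma adjusted p of 6.15e-04, 0.00528 and 0.00797. The Slc48a1 call was lost with title code 44 alone (0.0669). Hmox2, the constitutive relative of Hmox1, was called lower (-0.36 ± 0.11, limma adjusted p = 0.047), a call lost without any 1 of the 8 libraries (0.0546 to 0.132).

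Of 13 other tested NRF2 targets of detoxification and export there were 2 higher, 1 lower and 10 not called (median log2 change 0.06). Called genes were 23.1% of the list, beside 15.7% of all tested genes. Abcc3, an exporter of organic anions and glutathione conjugates, had 35.5, 40.7, 45.5 and 67.5 FPKM in knockout libraries 1 to 4 and 12.7, 9.46, 7.15 and 7.41 FPKM in wild-type libraries 1 to 4. The groups were far apart, and it rose by 2.24 ± 0.23 (log2, SE; limma adjusted p = 1.99e-04). Pir, pirin, an iron-binding nuclear protein, fell by 1.07 ± 0.14 (limma adjusted p = 9.85e-04). Trim16, a ubiquitin ligase, rose by 1.32 ± 0.37 (limma adjusted p = 0.0389) with overlapping groups, and lost the call without knockouts 1, 2 or 3 or wild types 1, 2 or 4 (0.0625 to 0.103). Ephx1, microsomal epoxide hydrolase, did not pass (0.55, limma adjusted p = 0.395), although array weights brought it to 0.0358.

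Slpi, Sprr2d, Sprr2h and Epgn are known to be raised by active NRF2 in mouse keratinocytes. Of these there were 3 higher, 0 lower and 1 not called (median log2 change 2.76), beside 6.72% of all tested genes called higher. Slpi, a secreted protease inhibitor, had 107, 43.8, 24.9 and 17.0 FPKM in knockout libraries 1 to 4 and 9.41, 0.489, 11.1 and 2.37 FPKM in wild-type libraries 1 to 4. All knockouts were above all wild types, knockout 1 by far, and it rose by 2.95 ± 0.73 (log2, SE; limma adjusted p = 0.024). Leaving out knockout 1 (0.0582) or 2 (0.0606), or wild type 2 (0.0525) or 4 (0.0567), ended that call. Sprr2d, which encodes a cornified envelope protein, had 279.8, 268, 141 and 156 FPKM in knockout libraries 1 to 4 and 47.0, 17.2, 80.2 and 17.9 FPKM in wild-type libraries 1 to 4 (limma adjusted p = 0.00588). Epgn, a ligand of the EGF receptor, had 119, 86.5, 21.5 and 11.5 FPKM in knockout libraries 1 to 4 and 0.45, 0.491, 1.26 and 1.83 FPKM in wild-type libraries 1 to 4 (limma adjusted p = 0.00187). For these 3 genes knockouts 1 and 2 (title codes 11 and 14) had more than knockouts 3 and 4 (both code 44). Sprr2h did not pass (1.31 ± 0.46, limma adjusted p = 0.087), but it did with title code as a block (0.0113), with array weights (0.00687), in codes 11 and 14 alone (0.00884) and without knockout 4 (0.0333). Large rises of some of these genes were known when the list was made, and Sprr2 genes are closely related, so the count is no independent evidence of a direction.

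**Figure D4:**
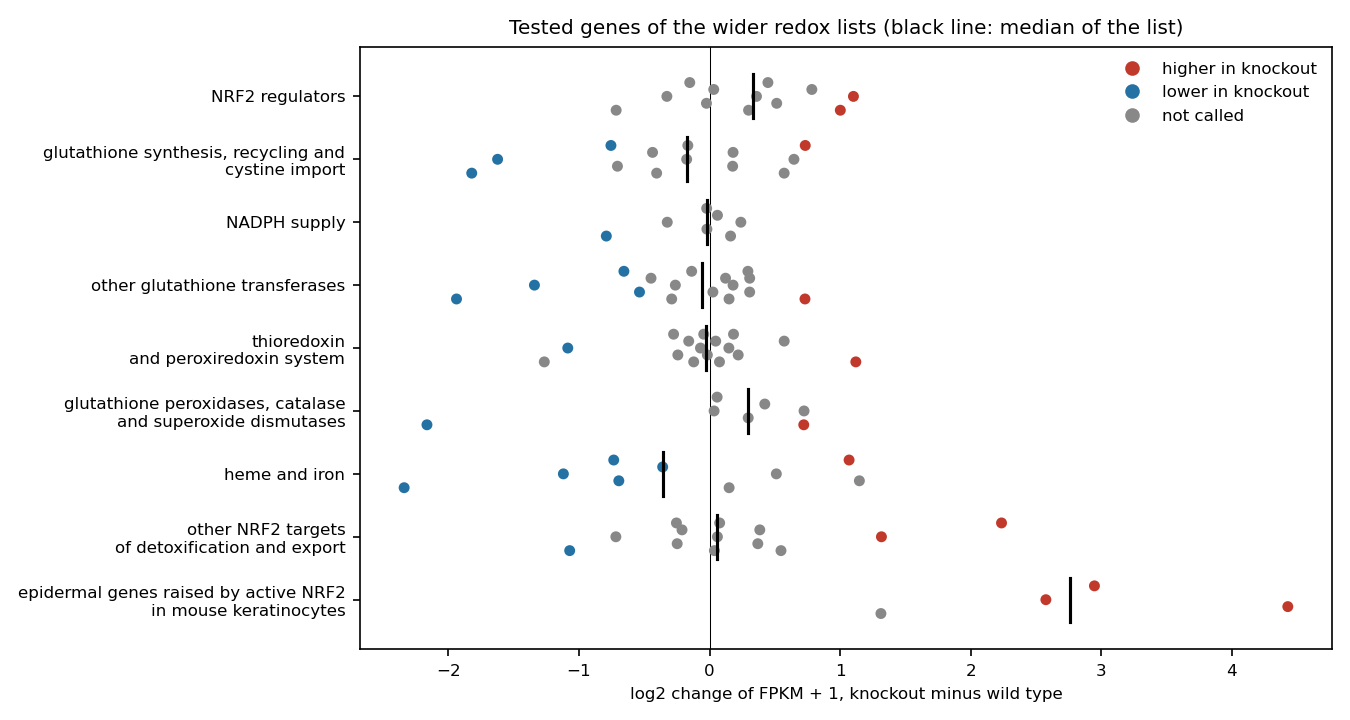
Log2 change of FPKM + 1, knockout minus wild type (horizontal axis), of each tested gene in 9 lists of the wider redox system (rows), marked by call, with a black line at the median of each list. Of 97 tested genes 12 were called higher and 16 lower, and the medians lay between -0.36 and 0.33 in all lists except the epidermal one.

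Over the 9 lists 12 of 97 tested genes were called higher, 16 lower and 69 were not called. That is 28.9% called, beside 15.7% of all tested genes. The lists were chosen with earlier results of these data known, so this share supports nothing by itself. It includes the epidermal list, from which Epgn and Sprr2d come. Of the 28 called genes 13 were called under every alternative run. These were Sqstm1, Prdx6, Abcc3, Epgn and Sprr2d, which were higher, and Glrx, Me1, Gstm5, Cat, Slc40a1, Blvrb, Fech and Pir, which were lower. Epgn was below 1 FPKM in wild types 1 and 2 and passed the filter through the knockouts. It was thus not tested with at least 1 FPKM in all 8 libraries, so its alternatives numbered 20. Besides the libraries named above, other settings ended the calls of Ggct, Slc3a2, Gstm6, Hpgds, Gstt3, Sesn1, Hmox2, Trim16 and Slpi. The highest limma adjusted p among those settings was 0.14 for Ggct, 0.185 for Slc3a2, 0.112 for Gstm6, 0.199 for Hpgds, 0.299 for Gstt3, 0.21 for Sesn1, 0.224 for Hmox2, 0.21 for Trim16 and 0.139 for Slpi.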

How the data were processed

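RNA levels of newborn mouse epidermis were read from 1 table of FPKM that the authors deposited, with 4 knockout and 4 wild-type libraries. Per the labels' protocols, ribosome-depleted total RNA was made into stranded libraries and sequenced in pairs, and per the submitters' processing notes the build was mm10. The aligner, the counting and its strand setting were not stated in these labels. FPKM holds no counts, so depth and counting error are unknown. Missing values (2029 genes, with a median highest value of 0.167 FPKM) were taken as 0, and 4 genes listed at 0 in some libraries and at 100 FPKM or more in others (Krt1, Krt10, Flg2 and Rn45s) were left out.

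Log2(FPKM + 1) of 11395 genes with at least 1 FPKM in 4 libraries was fitted with limma 3.58.1 (R 4.3.3, trend) on genotype, and p-values were Benjamini-Hochberg adjusted over all of them and called under 0.05. Nqo1 was tested by exact permutation (SciPy 1.17.1). The fit was tested on simulated data with independent noise per gene. These held no effects shared across a library, and genes as low as Gsta3 were not among those changed. The simulation thus does not bear on either. Alternatives changed the pseudocount, filter, scaling, array weights, title codes, Xist or 1 library. Coordinates are from GENCODE M21 (GRCm38, the same build as mm10) and promoters from RefSeq. Named genes are the members, up to 4 genes of each list with the smallest p, and other called ones. The members and lists were chosen with earlier results of these data known.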

Additional observations from a re-analysis of the deposited data

Results flagged for a closer look

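Of 108 groups of 4 libraries examined for a library far from the other 3, 5 had one, and chance alone flags about 1 in 20. Among the members this was Gsta4 in wild type 1 (9.13 FPKM, with 4.77 to 5.25 FPKM in the other 3), and without that library the log2 change of Gsta4 was -1.04 (limma adjusted p = 0.00982). Chac1 stood apart in knockout 1 (4.78 FPKM, with 0.837 to 1.18 FPKM in the other 3). Knockout 4 stood apart for Cat (33.4 FPKM, with 20.5 to 22.4 FPKM in the other 3), for Gpx4 (47.0 FPKM, with 67.7 to 71.3 FPKM in the other 3) and for Ephx1 (3.41 FPKM, with 8.15 to 8.72 FPKM in the other 3).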

How the results depend on the processing

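Of the members, Gsta4 kept its call under all 21 alternatives. With title codes 11 and 14 alone Gsta3 (0.86) and Txn1 (-0.38) lost theirs, Mgst1 lost its call with equal medians (0.59) and code 44 alone (0.60), and Txn1 with log2 Xist as a covariate (-0.66). Txnrd1 passed with Xist (-1.13), and Gclc with quantile normalization (0.41), equal medians (0.40) and array weights (0.59). Hmox1 turned negative when rescaled to equal sums (-0.0028), with equal medians (-0.050), codes 11 and 14 alone (-0.24) and Xist (-0.24). Srxn1 turned positive with array weights (0.034) and codes 11 and 14 alone (0.10), and Nqo1 with code 44 alone (0.00064). Keap1 turned negative with quantile normalization (-0.016), equal medians (-0.021) and codes 11 and 14 alone (-0.24), and Gsto1 with array weights (-0.070). The cause was not tested. With 1 library left out, log2 changes ranged over 0.56 to 0.75 for Mgst1, -0.76 to -0.54 for Txn1, -0.17 to 0.18 for Hmox1, -0.10 to 0.059 for Nqo1 and -0.041 to 0.14 for Keap1.

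Members called higher numbered 1, of 2, with at least 1 FPKM in all 8 libraries, where Gsta3 was not tested, and with code 44 or codes 11 and 14 alone (1 to 2 with 1 library left out). Members called lower numbered 1 with codes 11 and 14 alone (1 to 2 with 1 left out). Over all genes 766 were called higher and 1019 lower, against 1942 and 1727 with array weights, 465 and 676 with Xist, 575 lower with code 44 alone, and 474 to 1083 higher and 649 to 1243 lower with 1 library left out. In the 9 lists 12 genes were higher, against 25 with array weights and 7 to 17 with 1 left out. The title codes join libraries of both genotypes (1 of each genotype in 11 and in 14, 2 of each in 44), and replicate numbers were not used for pairing. With title code as a block 2261 genes were called, against 1785 without it, and the calls of the 9 tested members did not change. In the lists 18 genes were then higher, against 12, and 16 lower, against 16. FPKM gives no depth, so no limit can be set on low genes such as Nqo1.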

Other observations

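The 5 tested genes outside the members whose log2(FPKM + 1) was most like that of Gsta4 over the 8 libraries, by Pearson correlation, were Bag4 (0.989), Hopx (0.989), Acot7 (0.988), Tmem65 (0.985) and Nek7 (0.979). These coefficients share the genotype split and are a description. Hopx, a homeodomain protein of differentiating keratinocytes, had 167, 159, 157 and 146 FPKM in knockout libraries 1 to 4 and 295, 239, 217 and 217 FPKM in wild-type libraries 1 to 4. Like Gsta4 it was highest in wild type 1 and lowest in knockout 4.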
